A study of Mus musculus with 12 samples.

Results

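Blood clotting outside the vessel starts with tissue factor, and clots are dissolved by plasmin, which is made from plasminogen by activator proteases. The 8 genes described here encode the initiator of clotting, its brakes, a thrombin receptor and the plasminogen activators. They are F3, Tfpi, Thbd, Procr, F2r, Plat, Plau and Plaur, 8 of the 19505 gene symbols with a probe on the array. The genes were listed by name, with earlier results of these data known, so their p-values are not independent evidence. Each gene was to be represented by the probe chosen by its highest mean signal over all arrays, but every one of the 8 had a single probe, so this choice removed nothing.

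The 12 arrays hold primary cultures of mouse trigeminal ganglion (TG) neurons, the sensory neurons of the face, in 4 groups of 3 arrays that differ in the RNA transfected: scramble miRNAs, miR-21, miR-34a or miR-324. All groups share the isolation of the neurons, the plating on laminin and the transfection itself. The labels give no strain, age, sex or time after transfection, and do not state if replicate arrays stand for separate cultures or animals. P-values therefore measure the spread between these arrays, which may be technical. The titles of scramble 1 and 2 and miR-34a 1 and 2 end in the same suffix (called suffix A here), those of scramble 3 and miR-324 2 in another (suffix B), and the other 6 arrays, among them every miR-21 array, have none. The labels do not say what a suffix stands for. The question the design poses is which transcripts differ after each miRNA from those after scramble.

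As background, tissue factor (F3) sits on fibroblasts, pericytes and glia around vessels and binds factor VII to start coagulation. Tissue factor pathway inhibitor (Tfpi), thrombomodulin (Thbd) and the endothelial protein C receptor (Procr) restrain clotting, the last pair mostly on endothelium. Thrombin signals to cells through its receptor F2r, and in the peripheral nervous system tissue-type plasminogen activator (Plat) is made by neurons and Schwann cells, while the urokinase activator (Plau) works with its receptor (Plaur) at the cell surface. A miRNA lowers target transcripts mainly by pairing of its seed, bases 2 to 8, with their 3′ untranslated regions.

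The mature miRNAs of the 3 transfected families are shown to identify the treatments. The labels name no arm, so both arms of each hairpin are given as RefSeq lists them (mouse build GRCm38.p6), 5′ to 3′, with the seed in capitals. The 6 sequences had 6 different seeds. Untranslated regions were not used here, so no seed site was searched for in the 8 genes.
mmu-miR-21a-5p: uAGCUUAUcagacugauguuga
mmu-miR-21a-3p: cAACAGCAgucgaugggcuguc
mmu-miR-34a-5p: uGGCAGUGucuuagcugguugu
mmu-miR-34a-3p: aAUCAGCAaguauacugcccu
mmu-miR-324-5p: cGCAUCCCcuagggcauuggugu
mmu-miR-324-3p: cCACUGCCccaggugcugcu

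Of the 8 genes 5 matched an entry of the RefSeq promoter table (250 bases before to 50 after a listed start, GRCm38.p6): F3, Tfpi, Procr, F2r and Plaur. A listed start need not be the outer end of the gene. The Plaur window (chr7:24462233-24462532) lies inside the gene, which starts at 24460937. Thbd, Plat and Plau were not used in this step. The windows of F3 and Procr are printed because these genes had the largest differences between miR-21 and scramble among the 8, in opposite directions. Capitals mark matches to TGANTCA, a loose form of the consensus of the AP-1 transcription factors in which N is any base. This pattern reads the same on both strands. F3 lies on the plus strand with its window at chr3:121723287-121723586, and Procr on the plus strand at chr2:155750967-155751266.
F3: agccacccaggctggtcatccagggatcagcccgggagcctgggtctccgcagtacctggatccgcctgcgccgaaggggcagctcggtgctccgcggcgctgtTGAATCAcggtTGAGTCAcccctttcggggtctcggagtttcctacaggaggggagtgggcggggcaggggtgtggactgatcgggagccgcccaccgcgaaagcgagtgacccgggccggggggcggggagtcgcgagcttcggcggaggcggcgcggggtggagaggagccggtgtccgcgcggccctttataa
Procr: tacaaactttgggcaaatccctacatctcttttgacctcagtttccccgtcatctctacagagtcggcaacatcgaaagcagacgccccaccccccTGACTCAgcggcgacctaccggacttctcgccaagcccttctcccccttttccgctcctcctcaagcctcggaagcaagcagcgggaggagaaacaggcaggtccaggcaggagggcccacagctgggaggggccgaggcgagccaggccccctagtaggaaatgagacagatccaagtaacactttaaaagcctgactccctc

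The F3 window held 2 such matches, and the windows of Procr, F2r and Plaur held 1 each. Thus 4 of the 5 genes, and 4 of their 6 windows, had a match. Such a match was present in 7.81% of all 32851 windows. The GC box letters GGGCGG, searched on both strands and not overlapping the first pattern, occurred 3 times in the F3 window and 3 times in that of Plaur. They occurred once each in that of F2r and in both windows of Tfpi, and not in that of Procr. This made 5 of the 6 windows, against 35.7% of all windows. A match describes the letters only, and no binding was measured.

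Markers of neurons and of other cell types gave signal, and the arrays differed in them. The median log2 signal of 7 trigeminal sensory neuron markers lay between 9.14 and 13.69, and that of 12 pan-neuronal markers between 10.17 and 13.94. The median of 9 endothelial markers was 9.13 and 9.98 in scramble 1 and 2, 12.23 in scramble 3, 8.42 to 9.57 after miR-21, 9.40 and 9.28 in miR-34a 1 and 2, 12.85 in miR-34a 3 and 12.86 to 13.82 after miR-324. The 9 fibroblast markers had medians of 10.57 to 11.44 after miR-21, 10.19 to 10.66 in the 4 arrays of suffix A and 7.43 to 9.27 in the other 5. The pituitary hormone Prl stood at 14.26 to 15.17 in scramble 3 and the 3 miR-324 arrays and at 4.83 or lower in the other 8, and the Y-linked Eif2s3y at 7.09 or higher in the miR-21 arrays, miR-34a 3 and miR-324 1. Olfactory receptor probes, a guide to the array floor, had medians of 3.47 to 4.07 per array and a 95th percentile of 5.25, and all 8 genes stayed above the latter on every array. In such bulk RNA, fewer cells of a type and less RNA per cell cannot be told apart.

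F3 was the member that rose after miR-21. Its log2 signal was 10.69, 10.77 and 10.88 in miR-21 1, 2 and 3, against 8.83, 8.90 and 7.38 in scramble 1, 2 and 3. The 3 miR-21 arrays lay close together and above every other array of the series. After miR-34a F3 stood at 8.57, 8.60 and 7.81 in arrays 1, 2 and 3, and after miR-324 at 8.34, 7.29 and 7.31 in arrays 1, 2 and 4. These values overlapped with scramble, and scramble 3 resembled the lower miR-324 arrays rather than scramble 1 and 2.

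The difference of F3 between miR-21 and scramble was 2.41 ± 0.41 on the log2 scale (SE; 10.78 ± 0.10 against 8.37 ± 0.86, SD, n = 3; adjusted p = 0.023 in limma), a 5.31-fold difference with a 95% interval of 1.51 to 3.31 in log2 units. It was the 33rd of 134 genes past the threshold in this direction when ordered by size. Against miR-34a the difference was 2.45 ± 0.41 (limma adjusted p = 0.045), and against miR-324 it was 3.13 ± 0.41 (adjusted p = 0.0050). These 3 comparisons share the miR-21 arrays. After miR-34a and miR-324 F3 differed from scramble by −0.04 ± 0.41 and −0.72 ± 0.41 (limma adjusted p = 1.0 and 0.41), with intervals of −0.94 to 0.86 and −1.62 to 0.18.

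F3 passed against scramble without any 1 scramble array (limma adjusted p = 0.044 to 0.048) and did not pass without miR-21 1, 2 or 3 (adjusted p = 0.10, 0.081 and 0.085), while the difference ranged from 1.92 to 2.67. Against miR-324 it passed in all 6 such fits, and against miR-34a only without miR-34a 3. Among the 6 arrays without a suffix F3 was 2.96 higher after miR-21 than after miR-324 and 2.97 higher than in miR-34a 3. Eif2s3y was at 7.09 to 7.85 in the miR-21 arrays. Outside that group it stood at 8.53 in miR-34a 3, where F3 was the lowest of its group (7.81), and at 7.88, 2.96 and 5.13 in miR-324 1, 2 and 4, where F3 was 8.34, 7.29 and 7.31. In the other 5 arrays, among them all 3 scramble arrays, Eif2s3y was 2.93 or lower. A high Eif2s3y signal and miR-21 thus cannot be told apart in the comparison with scramble. The fibroblast markers had their highest medians in miR-21 1 and 3, while 4 of the 9 were higher and 5 lower after miR-21 than after scramble in the mean, with 1 past the threshold. Col1a2 was 15.10 to 15.45 after miR-21 and 8.40 to 12.56 in scramble, while Dcn was 12.77 to 13.69 and 15.27 to 17.02. Dpt and Pi16, among the 5 lower, stayed below the floor value of 5.25 on every array. Fibroblast medians were 10.57 to 11.44 after miR-21 and 10.19 to 10.66 in the suffix A arrays, where F3 was 8.57 to 8.90. The 10 markers of pericytes and smooth muscle had medians of 7.98 to 8.87 after miR-21 and 6.64 to 8.22 in scramble. Of these 5 were higher and 5 lower in the mean, with 1 past the threshold. Myelinating Schwann cell markers had medians of 11.30 to 11.49 after miR-21 and 7.73 to 8.35 in scramble, all 6 higher in the mean and 2 past the threshold, but also 11.09 in miR-34a 3. The part of any of these markers in the level of F3 was not tested.

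**Figure D1:**
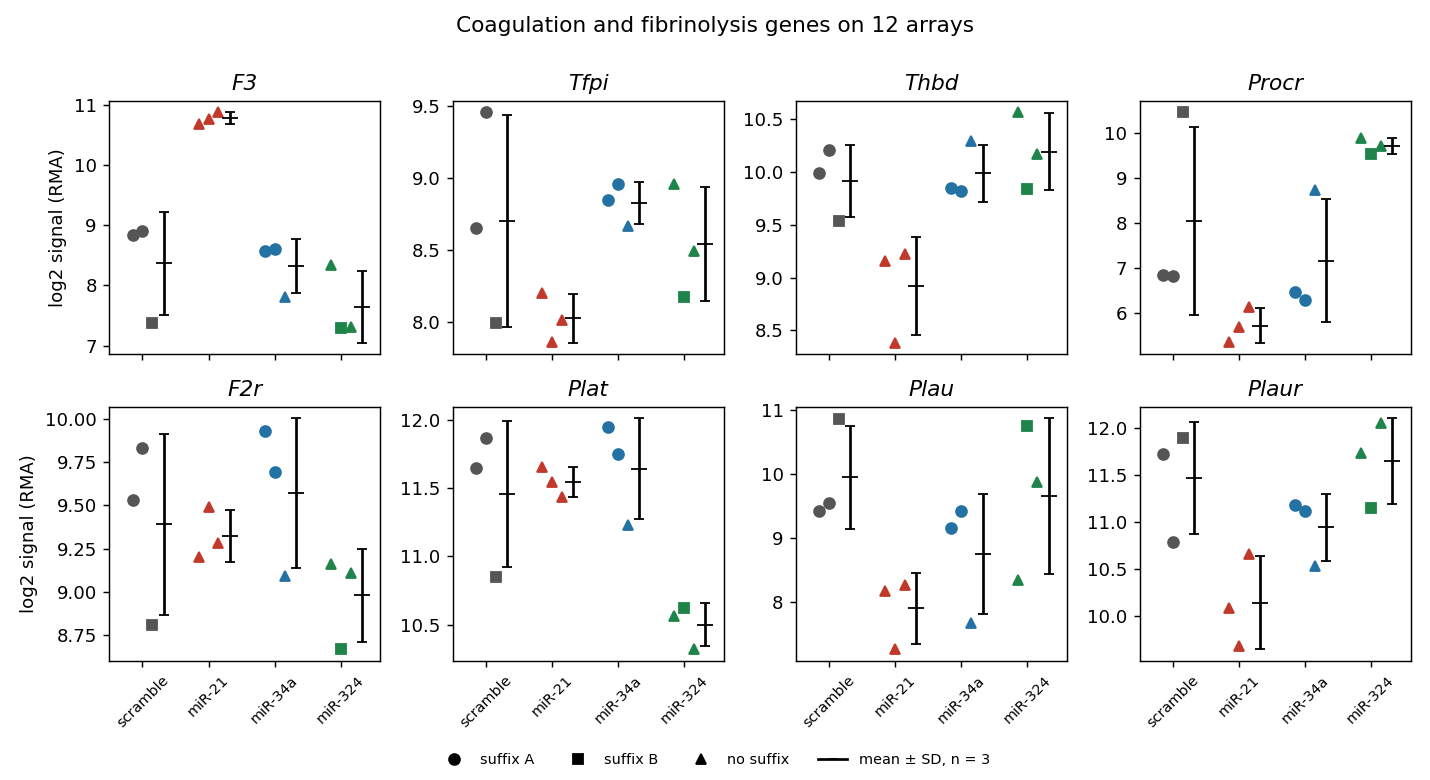
Log2 signal of the 8 genes on each of the 12 arrays, by transfected miRNA, with the mean ± SD of each group (n = 3) and the symbol giving the title suffix; each panel has its own axis. F3 in the 3 miR-21 arrays (10.69 to 10.88) lies above all other arrays, and Procr splits both the scramble and the miR-34a group.

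Across the 8 genes, 1 of 8 passed the threshold after miR-21, where 1.04% of the 19572 named probes did. The arrays of the 2 groups did not overlap for 5 of the 8, F3 on the higher and Thbd, Procr, Plau and Plaur on the lower side, against 25.6% of all named probes. For F3, Thbd and Procr the miR-21 arrays lay wholly above or below the other 9 arrays, which held for 5.21% of probes. The median difference over the 8 genes was −0.83 and that over all named probes 0.13. After miR-34a 0 of 8 passed, where 0% of named probes did, and 0 of 8 had groups that did not overlap, against 5.80%. After miR-324 0 of 8 passed, again with 0% of named probes, and 1 of 8 did not overlap, against 19.9%. At an unadjusted p under 0.05 limma had 3257 probes (16.6%) after miR-21, 286 (1.46%) after miR-34a and 2877 (14.7%) after miR-324, among them 5, 0 and 1 of the 8 genes.

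**Figure D2:**
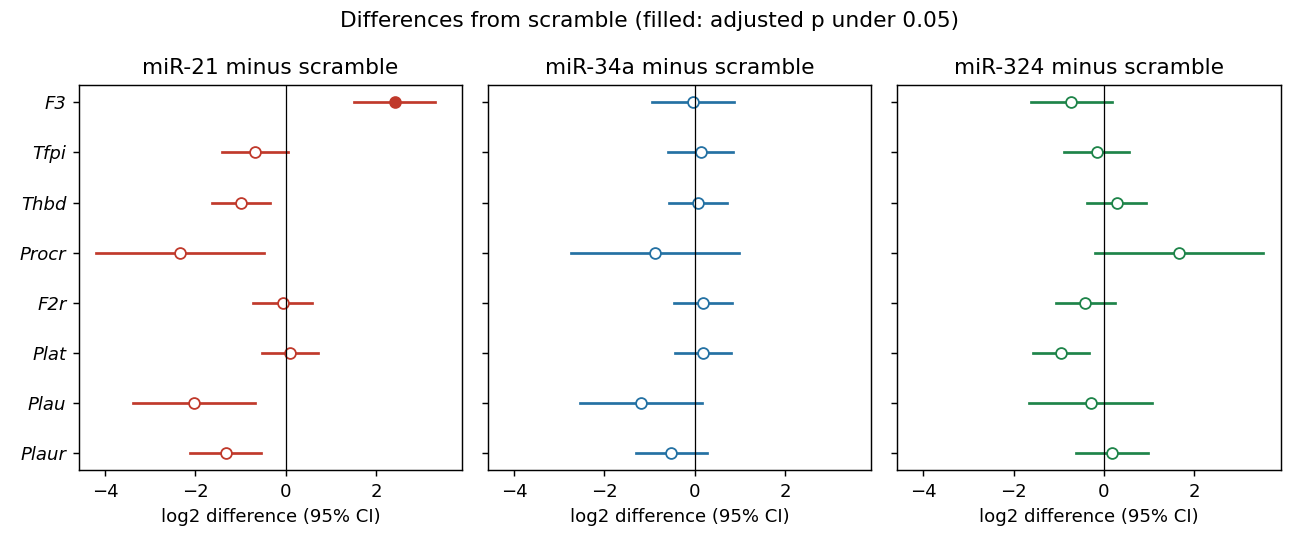
Log2 difference of each gene from scramble after miR-21, miR-34a and miR-324, with the 95% confidence interval of the limma fit over 12 arrays; a filled point passed at an adjusted p under 0.05. Only the F3 point after miR-21 (2.41) is filled, and the miR-34a intervals all include 0.

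For Tfpi, the inhibitor of the tissue factor and factor VIIa complex, no group stood apart from scramble. It stood at 8.65, 9.46 and 7.99 in scramble 1, 2 and 3 while the miR-21 arrays had 8.20, 7.86 and 8.01. In miR-34a 1, 2 and 3 Tfpi stood at 8.85, 8.96 and 8.67, and in miR-324 1, 2 and 4 at 8.96, 8.17 and 8.49. Scramble 2 was the highest array and the miR-21 arrays were among the lowest 5, with overlap. The differences from scramble were −0.68 ± 0.33, 0.13 ± 0.33 and −0.16 ± 0.33 after miR-21, miR-34a and miR-324 (limma adjusted p = 0.33, 1.0 and 0.84). The intervals reached from −1.40 to 0.05, from −0.60 to 0.85 and from −0.88 to 0.56.

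Thbd, which turns thrombin from a clotting into an anticoagulant protease, was lowest in the miR-21 arrays, at 9.16, 8.38 and 9.22. The scramble arrays 1, 2 and 3 stood at 9.99, 10.21 and 9.54, miR-34a 1, 2 and 3 at 9.85, 9.82 and 10.30, and miR-324 1, 2 and 4 at 10.57, 9.84 and 10.17. The lowest array outside the miR-21 group was thus scramble 3. Against scramble the difference was −0.99 ± 0.30 (limma adjusted p = 0.13), and it did not pass. Against miR-324 it was −1.27 ± 0.30 (adjusted p = 0.045), a 2.42-fold difference that did not pass without any 1 of the 6 arrays (adjusted p = 0.065 to 0.17). Against miR-34a it was −1.07 ± 0.30 (adjusted p = 0.21).

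Procr, which holds protein C for activation on endothelium, had the widest range of the 8 genes, 5.12 log2 units. It stood at 6.85, 6.83 and 10.47 in scramble 1, 2 and 3, with the miR-21 arrays at 5.35, 5.68 and 6.12. The miR-34a arrays 1, 2 and 3 stood at 6.47, 6.28 and 8.74, and the miR-324 arrays 1, 2 and 4 at 9.89, 9.54 and 9.71. Scramble 3 and miR-34a 3 were thus 3.63 and 2.37 above the mean of the other arrays of their own group. The miR-21 values came near the array floor, where differences are understated.

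Procr averaged 5.72 ± 0.39 after miR-21 and 9.71 ± 0.18 after miR-324 (SD, n = 3), a 16-fold difference with a 95% interval of −5.85 to −2.14 in log2 units (limma adjusted p = 0.032). Among the arrays without a suffix the difference was −4.08. It did not pass without any 1 of the 6 arrays (adjusted p = 0.072 to 0.13). Against scramble the difference was −2.33 ± 0.85 after miR-21 and 1.66 ± 0.85 after miR-324 (adjusted p = 0.20 and 0.37), and both moved with scramble 3. Without that array they were −1.12 (adjusted p = 0.35) and 2.87 (adjusted p = 0.043). With the suffix as a fixed block they were −4.17 (adjusted p = 1.21e-04) and −0.25 (adjusted p = 0.99). No scramble array lacks a suffix, so the miR-21 value of this fit rests on the miR-34a and miR-324 arrays. It assumes that a suffix shifts every group alike. Within suffix B the single miR-324 array was 0.93 lower than scramble 3 in log2 units, the other direction from the comparison over all arrays. After miR-34a the difference was −0.89 ± 0.85 (adjusted p = 1.0), and −0.46 within suffix A.

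The arrays with the highest Procr were those with the highest endothelial markers. The 5 arrays with an endothelial median of 12.23 or more, which are scramble 3, miR-34a 3 and the miR-324 arrays, had Procr at 8.74 to 10.47. The other 7 arrays, with a median of 9.98 or less, had it at 5.35 to 6.85. Cdh5, the endothelial cadherin, was at 15.57 to 16.80 in the first and 12.25 to 13.12 in the second. Kdr, another of the 9 markers, did not split them, at 12.23 in scramble 3 and 12.29 in scramble 2. Within the first 5 arrays the order differed, since scramble 3 had the highest Procr (10.47) and the lowest endothelial median (12.23). All 9 endothelial markers were higher after miR-324 than after scramble in the mean and all 9 lower after miR-21, none past the threshold. Prl was high in 4 of the first 5 arrays and at 4.01 in miR-34a 3. Their part in the level of Procr was not tested. Thbd is also a gene of endothelium. Its value in scramble 3 (9.54) lay below scramble 1 and 2, that in miR-34a 3 (10.30) above miR-34a 1 and 2, and miR-324 1 had the highest value of all (10.57).

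**Figure D3:**
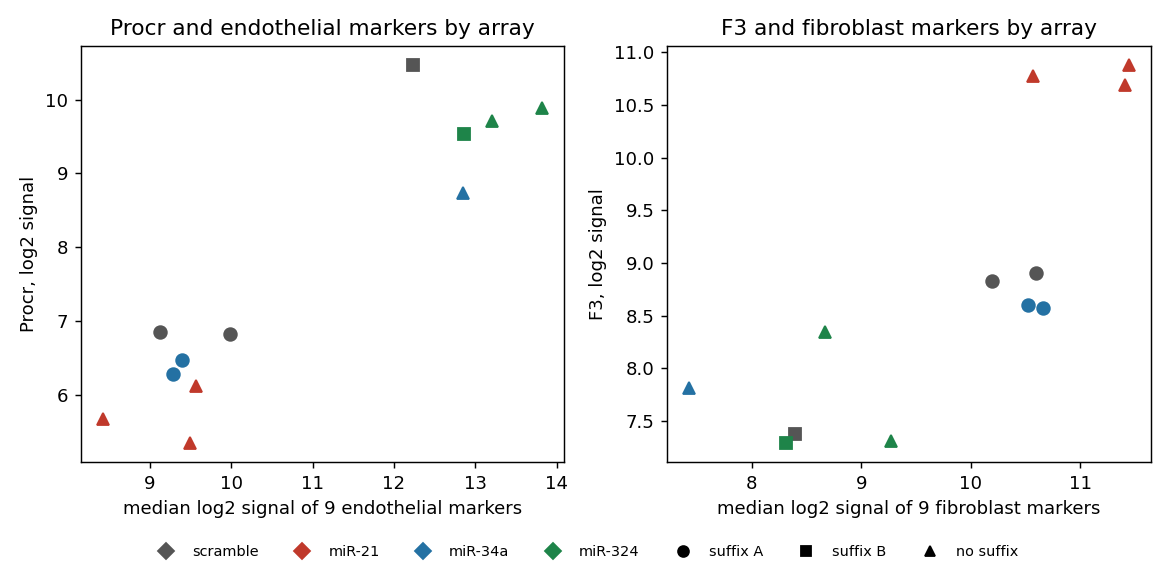
Left, Procr against the median of 9 endothelial markers on each array; right, F3 against the median of 9 fibroblast markers, all in log2 signal, with colour for the transfected miRNA and symbol for the title suffix. The 5 arrays with an endothelial median of 12.23 or more have Procr at 8.74 or above. The miR-21 arrays have F3 at 10.69 or above and fibroblast medians of 10.57 to 11.44, against 10.19 to 10.66 in the suffix A arrays.

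F2r, the thrombin receptor also called Par1, had the smallest range of the 8 genes, 1.26. Scramble 1, 2 and 3 stood at 9.53, 9.83 and 8.81 and the miR-21 arrays at 9.20, 9.49 and 9.28. The miR-34a arrays 1, 2 and 3 stood at 9.93, 9.69 and 9.09, and the miR-324 arrays 1, 2 and 4 at 9.16, 8.67 and 9.11. All groups overlapped with scramble, whose array 3 lay 0.87 below the mean of the others. The differences were −0.07 ± 0.30, 0.18 ± 0.30 and −0.41 ± 0.30 after miR-21, miR-34a and miR-324 (limma adjusted p = 0.93, 1.0 and 0.51), with intervals of −0.72 to 0.59, −0.47 to 0.83 and −1.06 to 0.24.

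Among the fibrinolysis genes Plat, the tissue-type activator, was lowest after miR-324. The miR-324 arrays 1, 2 and 4 stood at 10.56, 10.62 and 10.32, and every other array was at 10.85 or above. Scramble 1, 2 and 3 stood at 11.65, 11.87 and 10.85, the miR-21 arrays at 11.66, 11.55 and 11.44 and the miR-34a arrays 1, 2 and 3 at 11.95, 11.75 and 11.23. The difference from scramble after miR-324 was −0.96 ± 0.28 (10.50 ± 0.16 against 11.46 ± 0.54, SD, n = 3; limma adjusted p = 0.31), which did not pass. Without scramble 3 it was −1.26 (adjusted p = 0.043), and between the single arrays of suffix B it was −0.23. After miR-21 and miR-34a Plat differed by 0.09 ± 0.28 and 0.19 ± 0.28 (adjusted p = 0.89 and 1.0). Sensory neuron markers were lower in the miR-324 arrays as well, at medians of 9.35, 11.36 and 10.78 in arrays 1, 2 and 4 against 11.84 to 13.69 in scramble. They were also low in miR-34a 3 (9.14) and after miR-21 (10.89 to 11.31), where Plat was at 11.23 to 11.66. Their part in the level of Plat was not tested.

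Plau, the urokinase activator, had ranges within groups of 0.99 (miR-21) to 2.40 (miR-324) log2 units, beside group means of 7.90 to 9.94. Scramble 1, 2 and 3 stood at 9.42, 9.55 and 10.86, and the miR-21 arrays lower at 8.18, 7.27 and 8.26. The miR-34a arrays 1, 2 and 3 stood at 9.15, 9.42 and 7.68, and the miR-324 arrays 1, 2 and 4 at 8.34, 10.74 and 9.87. The 2 arrays of suffix B were the highest, and the 5 lowest arrays had no suffix. After miR-21 the difference was −2.04 ± 0.62 (limma adjusted p = 0.13), with an interval of −3.39 to −0.69. With the suffix as a fixed block the difference was −0.57 (adjusted p = 0.77). That value rests on the other groups, since no scramble array lacks a suffix. After miR-34a and miR-324 the difference from scramble was −1.19 ± 0.62 and −0.29 ± 0.62 (adjusted p = 1.0 and 0.84), and within suffix A and suffix B it was −0.20 and −0.12. Among the arrays without a suffix Plau was 0.22 higher after miR-21 than in miR-34a 3 and 1.20 lower than after miR-324 in log2 units.

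Plaur, the surface receptor that holds urokinase, stood at 11.72, 10.78 and 11.89 in scramble 1, 2 and 3 and lower in the miR-21 arrays, at 10.08, 9.68 and 10.66. The miR-34a arrays 1, 2 and 3 stood at 11.18, 11.11 and 10.53 and the miR-324 arrays 1, 2 and 4 at 11.73, 11.15 and 12.05. The lowest scramble array lay just above the highest miR-21 array, and miR-34a 3 lay inside the miR-21 range. The difference after miR-21 was −1.32 ± 0.36 (10.14 ± 0.49 against 11.46 ± 0.60, SD, n = 3; limma adjusted p = 0.098), which did not pass. Against miR-324 it was −1.50 ± 0.36 (adjusted p = 0.051), on the edge of the threshold. It passed there after quantile normalization again, with arrays centred on their medians, with the dimmer probes left out and with array weights. The same held with only the groups compared and with the suffix as a fixed or random block. It did not pass with a trend in the variance prior, without moderation of variances or with the label number as a block. Nor did it pass with any array of the miR-21 or miR-324 group left out. After miR-34a and miR-324 Plaur differed from scramble by −0.52 ± 0.36 and 0.18 ± 0.36 (adjusted p = 1.0 and 0.83).

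Between miRNAs, 1 of the 8 genes (F3) passed in miR-21 against miR-34a, where 0.158% of named probes did. A total of 3 passed in miR-21 against miR-324 (F3, Thbd and Procr), where 2.46% of named probes did. In miR-34a against miR-324 0 of 8 passed, with 0% of named probes and 2544 of them at an unadjusted p under 0.05. The nearest there were Plat (1.14 ± 0.28, limma adjusted p = 0.32) and Procr (−2.55 ± 0.85, adjusted p = 0.32), and both passed without miR-34a 3, where 801 probes (4.09%) did.

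Arrays of the same suffix allow miR-34a and miR-324 to be set against scramble for each of the 8 genes. Between miR-34a 1 and 2 and scramble 1 and 2 the differences lay between −0.46 (Procr) and 0.13 (F2r). Between miR-324 2 and scramble 3, 1 array each, they lay between −0.93 (Procr) and 0.30 (Thbd). In scramble alone, suffix B minus suffix A gave −1.49 for F3, −1.06 for Tfpi, −0.56 for Thbd, 3.63 for Procr, −0.87 for F2r, −0.91 for Plat, 1.38 for Plau and 0.64 for Plaur. For all 8 genes this difference within scramble was larger in size than the difference between miR-34a and scramble within suffix A. The share of all named probes with this relation was not counted. A difference of 1 array against 2 is also less precise than 1 of 2 against 2. All these differences are descriptions of 1 or 2 arrays each, with no test. No arrays of miR-21 and scramble share a suffix, so miR-21 and the lack of a suffix cannot be told apart in that comparison.

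Each member's array profile was set against 18454 other named genes after centring each gene on its own mean, and the 3 with the smallest mean absolute difference over the 12 arrays are named. For F3 these were Axl, a receptor tyrosine kinase (0.29 log2 units), Tpm2, a tropomyosin (0.33), and Sipa1l1 (0.34), where the median over all candidates was 1.08. Axl averaged 15.65 after miR-21, 13.83 after scramble, 14.05 after miR-34a and 12.99 after miR-324, highest after miR-21 and lowest after miR-324, like F3. For Procr they were F11r, a junctional adhesion molecule (0.30), the surface sialomucin Cd34 (0.30) and Calcrl, a receptor for adrenomedullin (0.32), with a median of 1.66. For Plau they were Sytl3, Nptx1 and Ier3 (0.28 to 0.30, median 1.02), and for Plaur Ereg, Plk3 and Lce1f (0.27 to 0.30, median 0.69). The genes nearest to Plat were Eif5a2, Lclat1 and Idh3a (0.15 to 0.16, median 0.57), those nearest to Thbd Ccdc126, St3gal6 and Zc3h12c (0.21 to 0.23, median 0.56), those nearest to Tfpi Rc3h1, Ambra1 and Cage1 (0.17 to 0.19, median 0.52) and those nearest to F2r Hacd3, Ywhab and Pafah1b2 (0.13 to 0.14, median 0.46). A gene of small range has small differences from many others, so these distances are not comparable between members.

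Of 42 other genes of coagulation and fibrinolysis 37 were measured and 5 were not analysed here. None of the 37 passed after any miRNA in limma, with 6, 2 and 8 at an unadjusted p under 0.05 after miR-21, miR-34a and miR-324, beside 16.6%, 1.46% and 14.7% of all named probes. Their median differences were 0.11, 0.00 and 0.02, beside 0.13, 0.04 and 0.09 for all named probes. Plasma factors made by the liver made up most of the 17 genes that never rose above the floor value of 5.25, among them F2 (prothrombin), the fibrinogen chains Fga, Fgb and Fgg, and Plg. The last encodes plasminogen, the substrate of Plat and Plau, and its log2 signal lay between 2.99 and 4.04. F13a1, the clot crosslinking transglutaminase, averaged 5.95 ± 0.21 in scramble, 5.15 ± 0.22 after miR-21 and 5.18 ± 0.20 after miR-324 (SD, n = 3; limma adjusted p = 0.11 and 0.31). The means after miR-21 and miR-324 lay below the floor value of 5.25, where differences are understated. Macrophages are a source of F13a1. Their 9 markers had medians of 5.11 to 5.44 after miR-21 and 4.09 to 4.42 after miR-324, against 7.90 and 7.85 in scramble 1 and 2 and 4.55 in scramble 3, where F13a1 was 5.75. In miR-34a 1, 2 and 3 these medians were 7.81, 7.38 and 4.72, and F13a1 was 5.53, 5.93 and 5.46. The part of these markers was not tested.

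Vwf, the platelet adhesion protein of endothelium, averaged 7.95 ± 0.24 in scramble, 9.07 ± 0.26 after miR-21, 8.98 ± 2.24 after miR-34a and 10.18 ± 1.91 after miR-324 (SD, n = 3). Its differences from scramble were 1.11 ± 0.99, 1.02 ± 0.99 and 2.22 ± 0.99 (limma adjusted p = 0.60, 1.0 and 0.33). Without miR-34a 3 the miR-34a difference was −0.27 (adjusted p = 1.0), and without miR-324 1 the miR-324 difference was 1.36 (adjusted p = 0.64). Vwf was highest in miR-324 1 and miR-34a 3 and low in scramble 3 (8.04), unlike Procr. The next genes were chosen after their values were seen. Anxa2, part of a cell surface receptor for plasminogen and Plat, averaged 16.38 ± 0.09 after miR-21 and 15.38 ± 0.21 in scramble (1.00 ± 0.21, adjusted p = 0.0501), just outside the threshold, with no overlap. Its partner S100a10 stood at 11.83 ± 0.32 against 12.74 ± 0.28 (−0.91 ± 0.48, adjusted p = 0.36). Ggcx, the carboxylase that completes vitamin K-dependent clotting factors, averaged 10.58 ± 0.37 against 9.18 ± 0.62 (1.40 ± 0.36, adjusted p = 0.087). Serpinb2, an inhibitor of both plasminogen activators, ranged from 7.55 to 13.67 over the arrays and differed by 2.01 ± 1.24 after miR-21 (adjusted p = 0.43). Without scramble 3 (7.55, against 12.11 and 12.19 in scramble 1 and 2) this difference was 0.48 (adjusted p = 0.83). F2rl2, the thrombin receptor Par3 of sensory neurons, ranged from 7.27 to 13.30 and differed by −1.40 ± 1.30, −1.25 ± 1.30 and −2.74 ± 1.30 after miR-21, miR-34a and miR-324 (adjusted p = 0.62, 1.0 and 0.35). Without miR-34a 3, which had 7.27 against 13.08 and 12.96 in the others, the miR-34a difference was 0.66 (adjusted p = 1.0). The miR-21 difference was −0.92 without scramble 2, and the miR-324 difference −1.80 without miR-324 1 (adjusted p = 0.82 and 0.66).

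**Figure D4:**
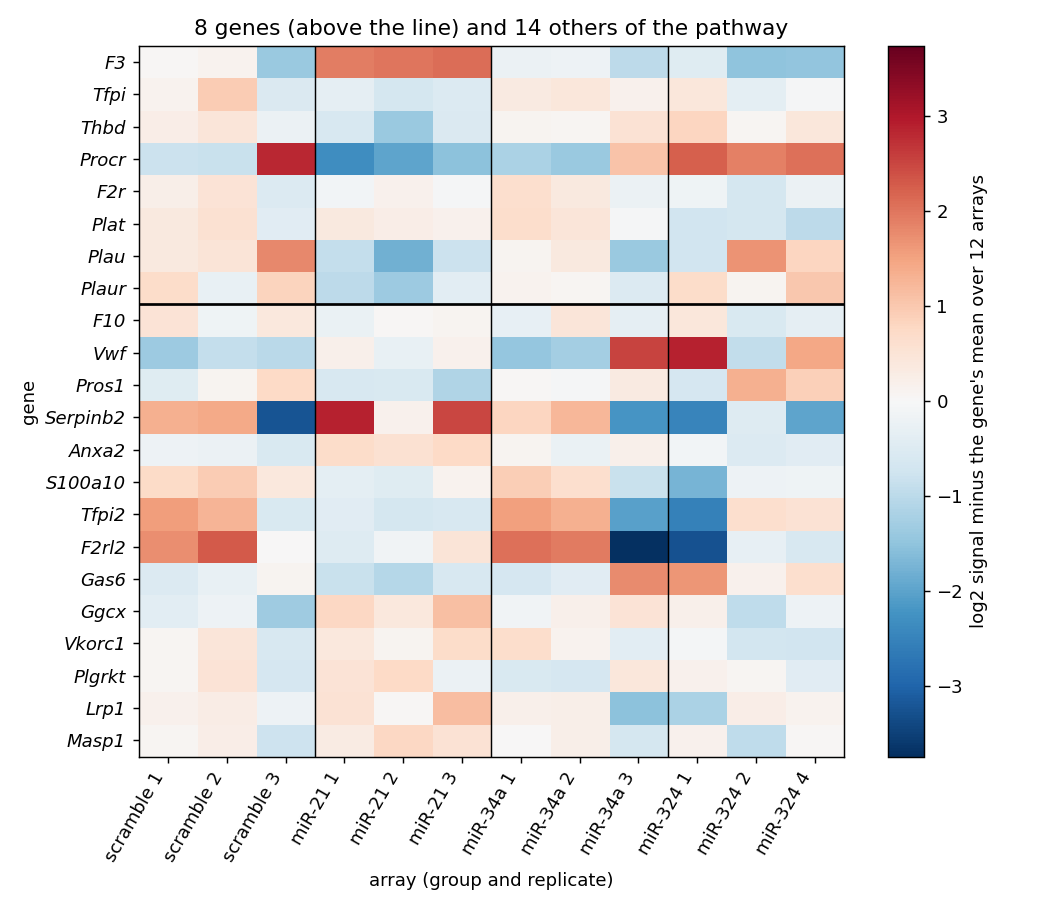
Log2 signal of the 8 genes (above the line) and the 14 other genes of the pathway that stayed above the floor on every array, each minus its own mean over the 12 arrays; columns are arrays in their groups. F3 is raised in the miR-21 columns, Procr in scramble 3, miR-34a 3 and the miR-324 columns, and F2rl2 and Serpinb2 vary by over 5 log2 units.

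**Figure D5:**
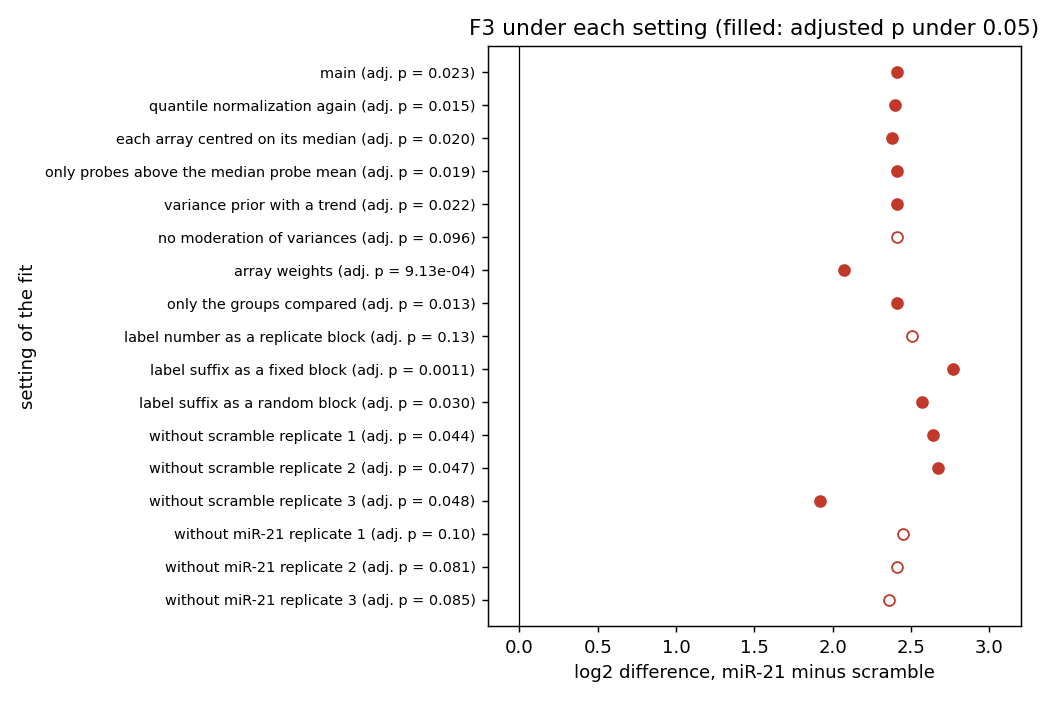
Log2 difference of F3 between miR-21 and scramble under each setting of the limma fit, with the adjusted p beside each setting and filled points past 0.05. The difference lies between 1.92 and 2.77 in all of them, and the points without a miR-21 array, without moderated variances or with the label's number as a block are open. The value with the suffix as a fixed block (2.77) rests on the other groups, since no scramble array lacks a suffix.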

How the data were processed

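Total RNA of mouse primary cultures was measured on 12 Clariom S Mouse arrays. The deposited values are log2 signals made by the authors with Transcriptome Analysis Console 4.0 and RMA (background correction, quantile normalization, probe summary), per the submitters' processing notes. RMA removes changes in total signal, and arrays have no read depth, so their number limits precision. Array medians lay between 5.91 and 6.06. Of 22206 probes 19572 had 1 gene symbol in the platform table, none had several and 2634 were unnamed; only the former were tested.

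With R 4.3.3 and limma 3.58.1, group means were fitted over the 12 arrays together (8 residual degrees of freedom, moderated variances). All tests were two-sided with Benjamini-Hochberg adjustment over the 19572 probes and a threshold of 0.05. The script was tested on simulated data. Named were the 8 genes, Plg, Vwf and F13a1, up to 4 genes of the pathway list past the threshold per direction, and the 3 genes of most similar profile per member; 2 further genes of this rule were not analysed here. The members, lists and alternatives were chosen with earlier results of these data known. Scramble arrays are numbered in accession order, the others by their labels. Alternatives covered normalization, the filter on dim probes, variances, array weights, threshold, blocks, suffixes and leaving out each array; for the named pathway genes this last was added after seeing the data.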

Additional observations from a re-analysis of the deposited data

How the results depend on the processing

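The number of the 8 genes past the threshold depended on the setting in every comparison but miR-34a against scramble. With array weights it was 4 for miR-21 against scramble, 3 for miR-324 against scramble, 2 for miR-21 against miR-34a, 6 for miR-21 against miR-324 and 4 for miR-34a against miR-324, where 12.2%, 13.2%, 11%, 9.14% and 14.3% of all named probes passed. With an unadjusted p under 0.05 and at least a 2-fold difference these counts were 4, 0, 2, 6 and 2, beside 7.25%, 5.86%, 3.72%, 7.14% and 4.42% of probes. Without moderation of variances, and with the label number as a replicate block, each comparison of miR-21 had 0. The shares of all named probes were then 0.0869% and 0.0102% against scramble and 0.0715% and 0.0255% against miR-34a. Against miR-324 they were 0.271% and 0.118%. With the suffix as a fixed block miR-21 had 2 against scramble, 3 against miR-34a and 5 against miR-324 (3.49%, 5.13% and 6.92% of probes). The count of 2 rests on the other groups, since no scramble array lacks a suffix. With the suffix as a random block miR-21 had 5 against miR-324 (4.1%). With only the groups compared miR-21 had 2 against scramble and 5 against miR-324 (4.63% and 5.33%). After quantile normalization again, with median centring and with probes above the median probe mean it had 4 against miR-324, Plaur added (2.59%, 2.36% and 5.06%). With only arrays without a suffix, chosen after seeing the data, it had 2 against miR-34a (2.14%). Leaving out 1 array gave 0 to 1 for miR-21 against scramble, with 0.0562% to 0.414% of probes. For miR-324 against scramble it gave 0 to 2 (2 without scramble 3, 1.96% of probes). It gave 0 to 1 for miR-21 against miR-34a (0.0102% to 2.74%) and 1 for miR-21 against miR-324 (0.439% to 2.05%). For miR-34a against miR-324 it gave 0 to 2 (2 without miR-34a 3, 4.09%). The cause of these changes was not tested.

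The number of all named probes past the threshold ranged from 2 to 2390 for miR-21 against scramble (204 in the fit reported), 2 to 2148 for miR-21 against miR-34a (31) and 23 to 1788 for miR-21 against miR-324 (481). It ranged from 0 to 2589 for miR-324 against scramble, 0 to 2806 for miR-34a against miR-324 and 0 to 32 for miR-34a against scramble, all 0 in the fit reported. The label numbers do not pair the arrays: deviations of same-numbered arrays correlated at −0.41 to 0.36 over 16 pairs, 3 of them over 0.1, so the block is a check only. With it F3 differed by 2.51 between miR-21 and scramble (adjusted p = 0.13).

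In 36 instances a refitted difference changed sign, none of a gene past the threshold in the fit reported or in the alternative. The untested differences within a suffix changed sign in 5 more: after miR-324 Procr was −0.93, Plaur −0.74 and Tfpi 0.18, and after miR-34a Tfpi was −0.15 and Thbd −0.27. For F2r after miR-21 these were 0.05 with the replicate block, 0.22 and 0.06 with the suffix as a fixed and random block, and −0.36 to 0.15 without 1 array. For Plat after miR-21 the values were −0.07 with array weights and −0.21 to 0.30 without 1 array. After miR-324 the fixed suffix block gave 0.00 for F2r, 0.48 for Plau, −0.25 for Procr and 0.06 for Tfpi. Plau was 0.27 with array weights, 0.05 with the random block and −0.84 to 0.36 without 1 array, Plaur −0.16 to 0.43 and Tfpi −0.51 to 0.22. After miR-34a F3 was 0.06 with the replicate block and −0.54 to 0.22 without 1 array, and Tfpi −0.09 with the fixed block and −0.23 to 0.51. Thbd was −0.01 after quantile normalization again, −0.15 with array weights, −0.04 with the replicate block, −0.15 and −0.03 with the fixed and random block, and −0.11 to 0.23 without 1 array. F2r, Plat and Procr ranged from −0.11 to 0.42, −0.12 to 0.39 and −1.68 to 0.32 without 1 array.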
